A study of Mus musculus with 32 samples.

Results

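The transcriptome of BV-2 cells carrying a miR-29a mimic was compared with that of BV-2 cells carrying a miR-146a mimic, both under lipopolysaccharide (LPS, the bacterial wall component that activates microglia). The 4 LPS_miR-29a and the 4 LPS_miR-146a libraries are 8 of the 32 libraries of the series and were chosen by the group that the sample labels give, and of 45706 genes listed, 12406 passed the filter on low counts and were tested. BV-2 is 1 immortalised mouse line derived from microglia, which are macrophages that live in the brain, and its genotype is labelled WT. Both groups received LPS at 10 ng/ml for 24 h and a transfected mimic, miR-29a-3p in one and miR-146a-5p in the other, so LPS, transfection and cell line were common to them. The 4 LPS_scramble libraries had the same LPS and a mimic without a designed target, and their values stand beside the others without entering the fit. The same pair of mimics without LPS is in 8 libraries labelled VEH_miR-29a and VEH_miR-146a. The sample labels place LPS before transfection and the study's methods place it after, which could not be settled here. The labels also call the cells glioblastoma, and a time label on replicates 3 and 4 of LPS_miR-29a and replicates 1 and 2 of LPS_miR-146a names an age of mice, which does not apply to a cell line. Nothing in the labels says that the 4 libraries of a group came from separate cultures, so p-values measure the spread between these libraries.

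MicroRNAs are short RNAs that guide Argonaute proteins to messenger RNAs whose 3′ untranslated region (UTR) pairs with the seed, bases 2 to 8 of the microRNA, and such pairing usually lowers the messenger RNA. miR-29a is known for targeting DNA methyltransferases, TET demethylases, extracellular matrix genes and members of the Bcl2 family. miR-146a is induced by nuclear factor kappa B and is known for damping signalling below Toll-like receptors through the kinase adaptor Irak1 and the ubiquitin ligase Traf6. In LPS-treated microglia those receptors start the release of cytokines and a wave of type I interferon response genes.

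The 2 mature sequences are printed because the target sites are read against their seeds (in capitals). They come from RefSeq on build GRCm38 and lie at chr6:31062673-31062694 (miR-29a-3p, minus strand) and chr11:43374435-43374456 (miR-146a-5p, minus strand).
miR-29a-3p: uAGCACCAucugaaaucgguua
miR-146a-5p: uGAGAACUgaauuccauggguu
Sites that match a seed, followed by A, in the annotated 3′ UTR of the targets described next are shown so that the letters behind a target are visible, with the match in capitals. The 2 Dnmt3a sites lie at chr12:3911389-3911412 and chr12:3911458-3911481 (plus strand), the Tet3 site at chr6:83364336-83364359 (minus), the Bmf site at chr2:118531356-118531379 (minus) and the Mcl1 site at chr3:95661843-95661866 (plus), and these match miR-29a. The Irak1 site at chrX:74015393-74015416 (minus) and the Traf6 site at chr2:101697943-101697966 (plus) match miR-146a. Tet3, Irak1 and Traf6 hold further sites of this kind, and for them only the site nearest the start of the UTR is shown.
Dnmt3a site 1: gcccaggggaggtagcTGGTGCTA
Dnmt3a site 2: cagcggggtcccaagcTGGTGCTA
Tet3: gaaatagtctaataaaTGGTGCTA
Bmf: atgtaaggaaagacatTGGTGCTA
Mcl1: gctagagtcttaaccaTGGTGCTA
Irak1: cagactcagaggtcaaAGTTCTCA
Traf6: taccgctctggtgttgAGTTCTCA

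Between the mimics, 1386 of 12406 genes were called (11.2%), 646 of them higher with miR-29a (5.21%) and 740 lower (5.96%). Calls were made by limma with voom weights and needed a Benjamini-Hochberg adjusted p under 0.05 together with a log2 fold change beyond 0.3 in either direction, and a log2 fold change is that of LPS_miR-29a over LPS_miR-146a throughout. Relative to scramble, genes called higher stood at a median log2 fold change of 0.40 with miR-29a and -0.52 with miR-146a, and genes called lower at -0.46 and 0.31. Such genes were chosen for the difference between the mimics, which can place scramble between them, and over all genes tested the medians were 0.01 and -0.02. Calls against scramble are from fits without the replicate number throughout. With a block for that number they rose from 628 to 1407 for miR-29a and from 269 to 1195 for miR-146a. Values of genes are in CPM, restored counts scaled to the same total in every library, and groups are given in the order of replicates 1 to 4. Library totals were 5838812 to 15828945 restored counts in LPS_miR-29a and 3612011 to 9888275 in LPS_miR-146a, where 3 counts, the floor used here, stood for 0.17 to 0.80 CPM. Totals, small structural RNA and mitochondrial genes did not pass a test between the groups (exact two-sided permutation p = 0.343, 0.886 and 0.286, smallest p possible 0.0286). Between libraries of the same number the mitochondrial share was higher with miR-29a in 4 of 4 pairs (3.61, 1.74, 4.09 and 3.68% against 3.29, 1.21, 2.61 and 2.63%; exact two-sided paired permutation p = 0.125, the smallest that 4 pairs allow), and its part in the calls was not tested. A block for the replicate number gave 3191 calls (25.7%), 1575 higher (12.7%) and 1616 lower, and the count fell to 633 without LPS_miR-146a replicate 3, 822 without LPS_miR-29a replicate 3 and 869 without LPS_miR-29a replicate 1. The log2 fold change moved with GC content across genes (Spearman's rho -0.257), the median being 0.15 in the quartile of genes lowest in GC and -0.15 in the highest. Once that trend and the one with transcript length were removed, with limma-trend in place of voom, 670 genes were called higher and 985 lower, and the counts after this removal are given beside the reported targets, the Bcl2 family and the histones. Of 115 genes named by rule, 31 overlap an annotated gene on the other strand and 21 one on the same strand, among them Dnmt3a, Tet3, Ago2, Ndrg1, Hyal1 and Ccl2, and their reads cannot be told apart where the counting strand is not stated.

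The cells carried transcripts of microglia and macrophages. Of 18 microglia and macrophage markers 14 were above 3 counts in all 8 libraries, among them Csf1r, Trem2, Tyrobp and Ptprc, and their summed level was 2843 to 3561 CPM with miR-29a and 4308 to 5077 CPM with miR-146a. The brain microglia marker Sall1 was at or under 3 counts in every library. Other members of the list were low, with Cx3cr1 at most 1.57 CPM and C1qa at most 2.79 CPM. P2ry12 read 4.93 to 7.37 CPM with miR-29a and 0.80 to 8.18 with miR-146a, and Tmem119 3.44 to 7.31 and 1.86 to 3.84. Of 12 glioma and astrocyte markers none was above 3 counts in all 8 libraries, their sum reached at most 5.59 CPM, and Sox2 and Aldh1l1 were at 0, which goes against the glioblastoma label. Of 10 fibroblast and endothelial markers 7 were at or under 3 counts in every library, and their sum of 280.3 to 309.8 CPM with miR-29a and 228 to 258 CPM with miR-146a was nearly all the growth factor receptor Kdr (279 to 308 against 226 to 256 CPM), which was not called. Neuronal markers summed to at most 3.14 CPM and lymphocyte markers to at most 6.66 CPM, nearly all of it Cd4, which macrophages can carry and which was lower with miR-29a (0.616 to 2.12 CPM against 3.21 to 5.86). In such bulk libraries fewer cells of a kind and less RNA per cell cannot be told apart.

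Reported targets of miR-29a were lower with miR-29a than with miR-146a. Of 29 tested members of a list of published targets, 12 fell and 1 rose with miR-29a relative to miR-146a, and their median log2 fold change was -0.60 beside 0.03 over all genes tested. Without LPS_miR-146a replicate 3 the fallen members numbered 7, and they numbered 14 once the trend with GC content and length was removed. Relative to scramble the median of the list was -0.30 with miR-29a, where 5 were called, and 0.18 with miR-146a, where 2 were called. Over all genes 4.80% and 2.15% were called against scramble. The list includes the DNA methyltransferase Dnmt3a, which read 109, 122, 104 and 119 CPM with miR-29a, 353, 449, 425 and 391 with miR-146a and 294, 296, 269.8 and 273 with scramble. The groups did not overlap, as was so for 17.7% of all genes tested, and scramble lay between them. Dnmt3a was 3.57-fold lower with miR-29a (log2 fold change -1.83 ± 0.13, adjusted p = 1.79e-05). Its 3′ UTR holds 6 matches to the miR-29a seed. Tet3, an enzyme that oxidises 5-methylcytosine, read 40.6, 44, 43.4 and 44.6 CPM with miR-29a and 94, 96.2, 100.04 and 89.2 with miR-146a, and 10 matches lie in its UTR. By limma Tet3 differed by a log2 fold change of -1.15 ± 0.13 (adjusted p = 0.000278). Dnmt3a writes cytosine methylation and Tet3 erases it, and every library with miR-146a stood above every library with miR-29a or scramble in both. The other enzyme that writes new methylation, Dnmt3b, did not pass the test (log2 fold change -0.36 ± 0.21, adjusted p = 0.298) at 8, 11.7, 9.62 and 9.49 against 11, 15.9, 11.7 and 11.4 CPM.

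In the Bcl2 family, whose members promote or prevent cell death, both Bmf and Mcl1 were lower with miR-29a. Bmf, a death-promoting member that binds Bcl2 proteins, read 21.2, 27.5, 21.4 and 15.7 CPM with miR-29a and 58.1, 56.8, 56.4 and 35.1 with miR-146a. Bmf was 2.45-fold lower with miR-29a (log2 fold change -1.29 ± 0.21, adjusted p = 0.0025). Mcl1, which keeps cells alive, read 658, 674, 541 and 482 against 1014, 1106, 834 and 922 CPM. For Mcl1 this gave a log2 fold change of -0.73 ± 0.16 and an adjusted p of 0.012. The groups of both genes were apart, with miR-146a replicate 4 low for Bmf, and Bmf with miR-29a overlapped scramble (44.3, 33.8, 34.9 and 22.9). Of 14 tested genes of the family, 3 fell, Bbc3 included, and 1 rose, Bid, which like Bbc3 promotes death, with 6 falling in the block and 5 once the trend with GC content and length was removed, and the calls of Bbc3 and Bid were each lost when any of 6 of the 8 libraries was left out. The growth factor Igf1, with 2 matches, was lower with miR-29a at 134, 102, 139 and 189 against 313, 253, 297 and 335 CPM (log2 fold change -1.12 ± 0.18, adjusted p = 0.00245). Other targets called lower were the transcription repressor Hbp1, the histone demethylase Kdm5b, the laminin chain Lamc1, the lipase Lpl, the growth factor Vegfa and the cell cycle kinase Cdk6, with log2 fold changes from -0.76 to -0.61, and Cdk6, whose groups overlapped, lost its call when any of 6 libraries was left out. Kdm5b, Lamc1 and Lpl were not called without LPS_miR-146a replicate 3, and Vegfa was not without LPS_miR-29a replicate 3. Ccnd2, a D-type cyclin with 2 miR-29a matches and 1 miR-146a match, went the other way. It read 97.7, 95.4, 105 and 88.4 CPM with miR-29a, 38.5, 55.9, 39.4 and 60.7 with miR-146a and 84.8, 89.8, 86.1 and 104 with scramble, so that miR-29a and scramble overlapped and miR-146a stood below both (log2 fold change of miR-146a over scramble -0.97, called). Ccnd2 was 2.05-fold higher with miR-29a (log2 fold change 1.03 ± 0.16, adjusted p = 0.00241).

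**Figure D1:**
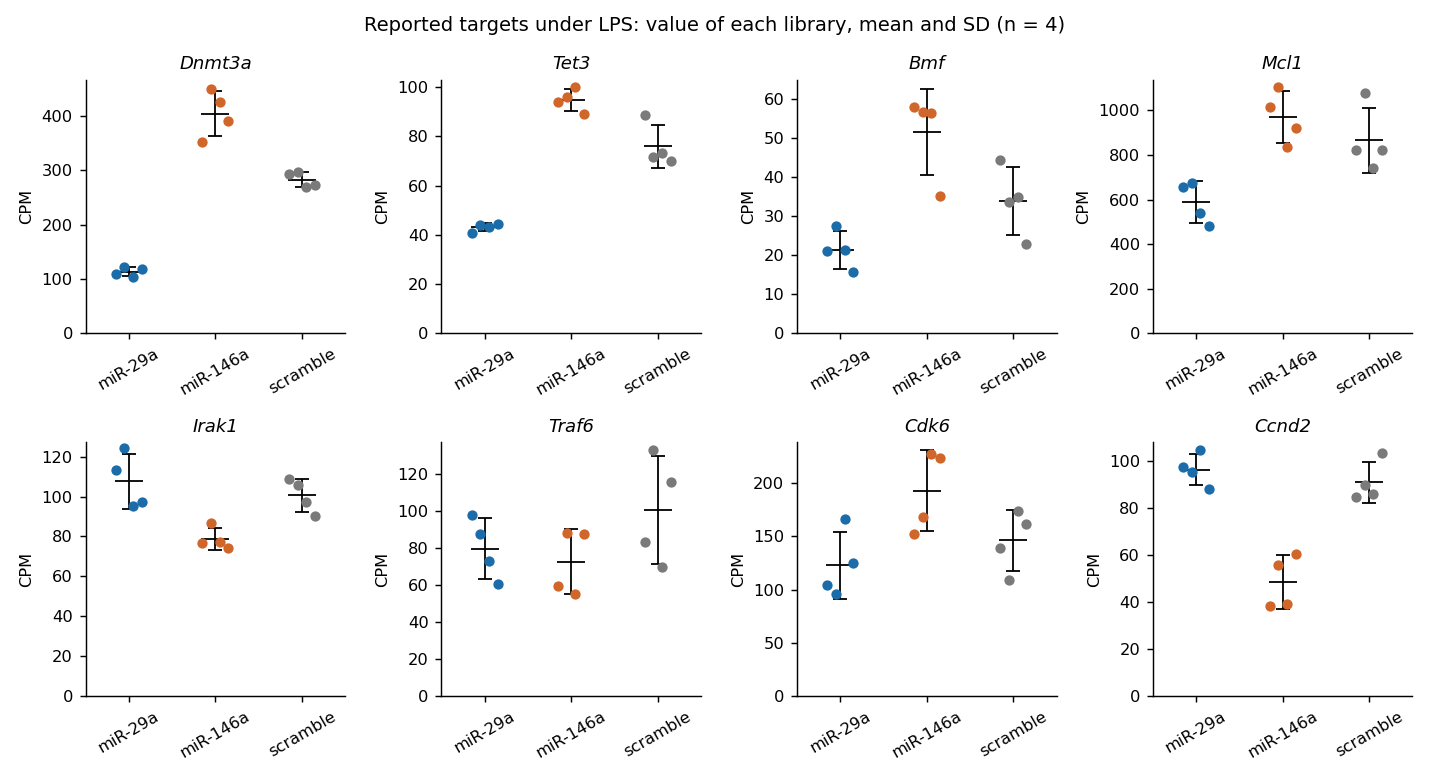
CPM of 8 reported targets under LPS in the 4 libraries of each group, with the mean and SD as bars and y axes from 0; blue is miR-29a, orange miR-146a and grey scramble. Dnmt3a, Tet3 and Mcl1 were lowest in the 4 miR-29a libraries, Irak1 and Ccnd2 in the 4 miR-146a libraries, Bmf was lower with miR-29a than with miR-146a, and Traf6 and Cdk6 overlapped between these groups.

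Calls among reported targets of miR-146a were fewer and depended on the fit. Of 24 tested, 2 were higher with miR-29a, which means lower with miR-146a, 1 was lower and the median log2 fold change was 0.13. Irak1, with 3 matches to the miR-146a seed, read 113, 125, 95.5 and 97.4 CPM with miR-29a, 76.8, 86.9, 77.2 and 74.3 with miR-146a and 109, 106, 97.3 and 90.3 with scramble. Every miR-146a library lay below every library of the other groups, yet the difference missed the threshold (log2 fold change 0.43 ± 0.14, limma adjusted p = 0.0628) and passed it with the replicate block. Traf6, with 4 matches, read 97.7, 87.7, 72.8 and 60.4 against 59.5, 88, 55.2 and 87.6 CPM, and the groups overlapped (95% interval of the log2 fold change -0.27 to 0.57). Among the members that passed were Brca1, a DNA repair protein with no miR-146a match and 1 miR-29a match, and Cxcr4, a chemokine receptor. Cxcr4 moved against the list, at 24.5, 16, 20.3 and 16.9 CPM with miR-29a and 28.5, 31.4, 37 and 39.4 with miR-146a. With the block 7 members were higher with miR-29a and 4 lower, with the trend of GC content and length removed 5 and 1, and with both 8 and 3.

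Over all genes, a match to the miR-29a seed went with a lower level in the miR-29a than in the miR-146a libraries. The 1348 genes with a miR-29a match alone had a median log2 fold change of -0.07, and 7143 genes with neither match had 0.05. The difference of these medians was -0.12, and it was -0.08, -0.15, -0.08 and -0.17 in the pairs of libraries with the numbers 1 to 4 (SD 0.05, lower in 4 of 4 pairs). Genes with more matches had lower medians and longer UTRs, -0.06 for 1 match in 1152 genes, -0.16 for 2 in 156 genes and -0.18 for 3 or more in 40 genes, with median UTR lengths of 1828, 2864 and 4210 bases. By kind of match the median was -0.05 in 211 genes with a match of 8 bases, -0.08 in 867 genes whose best match covers bases 2 to 8 without the A and -0.02 in 270 genes whose best match covers bases 2 to 7 with it. In the same order 16.11%, 10.15% and 10.37% of them were called lower, and the medians were -0.1227, -0.1056 and -0.0356 once the trend with GC content and length was removed, so the match of 8 bases came first or second depending on the measure. Among genes called lower with miR-29a, 33.2% held a miR-29a match, beside 19.4% of all genes tested and 13.9% of those called higher. The difference was lower in each quartile of UTR length, from -0.22 among the shortest to -0.0547 in the next quartile. Relative to scramble, genes with a miR-29a match alone had medians of -0.04 with miR-29a and 0.03 with miR-146a. Genes with neither match had 0.01 and -0.04, so both mimics entered the difference.

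Genes with a match to the miR-146a seed alone differed little from genes with neither match. Their median was 0.06 in 1486 genes, the difference from genes with neither match was 0.02, and it was 0.03, -0.01, 0.07 and -0.02 in the 4 pairs (SD 0.04). These genes have longer UTRs than genes with neither match (median 2132 against 817 bases), and within the quartiles of UTR length, from shortest to longest, the difference was 0.0248, 0.0304, 0.0645 and 0.0351, above 0 in 4 of 4 pairs in each of the 3 shorter quartiles and in 3 of 4 in the longest. Among 322 genes whose match is followed by A and covers bases 2 to 8, the median was 0.12 and the difference 0.07, above 0 in all 4 pairs (0.09, 0.03, 0.13 and 0.02). Genes with both matches, 726 in number, had a median of -0.06. A miR-146a match was held by 22.9% of genes called lower with miR-29a, 20.8% of those called higher and 20.7% of all genes tested. The seed of miR-7a, a mimic that neither group received, served as a comparator, with a median of 0.02 in 1423 genes with its match and 0.05 in 5720 genes with none of the 3 matches. Relative to scramble, the 322 genes with a miR-146a match of 8 bases had medians of 0.08 with miR-29a and -0.04 with miR-146a. Genes with neither match had 0.01 and -0.04, and all 1486 genes with a miR-146a match alone had 0.06 and -0.0009.

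**Figure D2:**
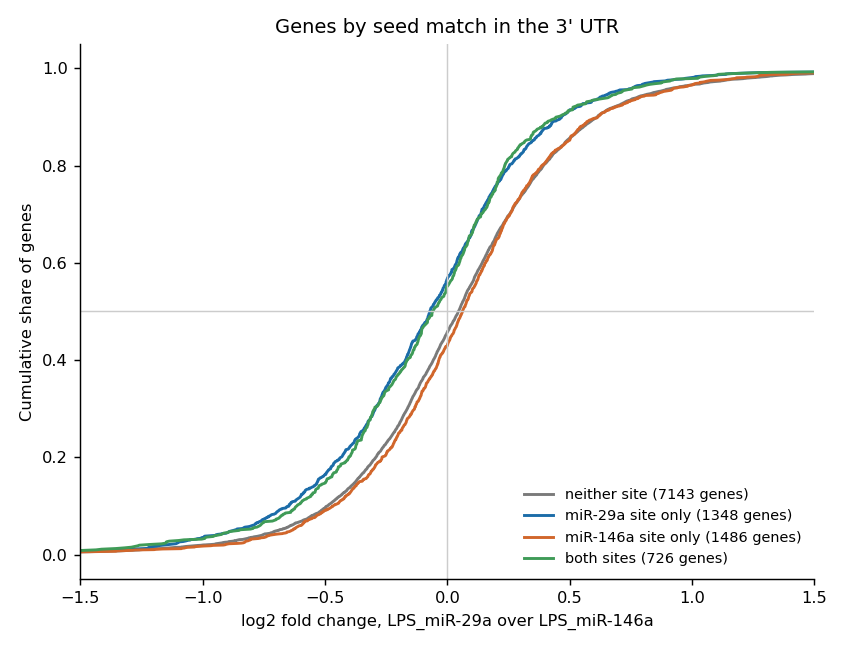
Cumulative share of genes by log2 fold change of LPS_miR-29a over LPS_miR-146a, for genes with a miR-29a seed match alone (blue), a miR-146a match alone (orange), both (green) or neither (grey) in the annotated 3′ UTR; 169 genes lie outside the axis. The curves for a miR-29a match, alone or with a miR-146a match, lie left of the curve for neither, and the curve for a miR-146a match alone lies close to it.

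The further genes are described by lists of known function, and each list's median stands beside the 0.03 of all genes tested. The lists were chosen with results of these data known, so their shares describe the data.

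**Figure D3:**
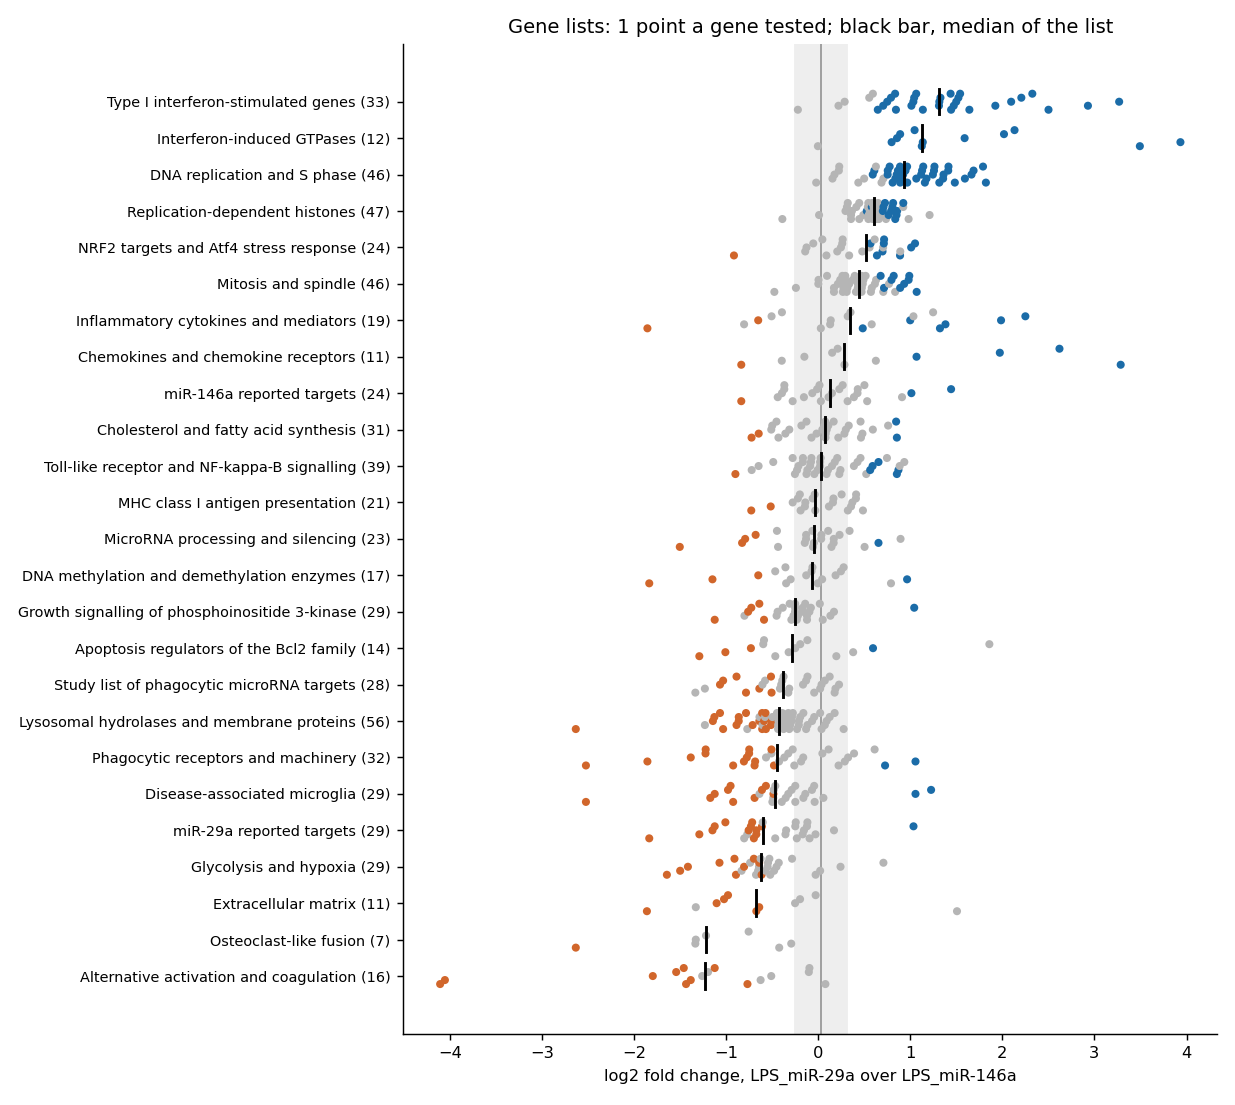
Log2 fold change of LPS_miR-29a over LPS_miR-146a for each tested gene of the lists, with the number of genes tested in brackets; blue points were called higher, orange lower and grey not called, black bars are list medians, and the grey band spans the interquartile range of all genes (-0.25 to 0.31). Interferon and replication lists lie to the right, and alternative activation, matrix, glycolysis and phagocyte lists to the left.

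Interferon response genes were higher with miR-29a. Of 33 tested type I interferon-stimulated genes 28 rose and none fell (median log2 fold change 1.31, from -0.22 to 3.27), and of 12 interferon-induced GTPases, large proteins that attack the vacuoles of intracellular microbes, 11 rose and none fell (median 1.13). Against scramble the medians of the first list were 0.75 for miR-29a and -0.39 for miR-146a, with 14 and 1 members called, over backgrounds of 4.80% and 2.15% of genes. Cmpk2, a mitochondrial nucleotide kinase, read 57.6, 56.3, 106 and 27 CPM with miR-29a, 7.88, 5.46, 5.68 and 3.46 with miR-146a and 13.6, 9.06, 12.5 and 5.93 with scramble. By limma Cmpk2 differed by a log2 fold change of 3.27 ± 0.47 (adjusted p = 0.0014). The miR-146a and scramble ranges of Cmpk2 overlapped. Ifi44, an interferon-induced cytoplasmic protein, read 26.2, 34.1, 65.7 and 23.9 against 5.05, 5.13, 7.61 and 1.06 CPM. Ifi44 was 7.62-fold higher with miR-29a (log2 fold change 2.93 ± 0.50, adjusted p = 0.00341). The antiviral RNA-binding protein Ifit1 read 17.4, 16.1, 32.8 and 15.6 against 3.94, 2.99, 4.71 and 1.86 CPM, with replicate 3 of miR-29a far above the rest. For Ifit1 this gave a log2 fold change of 2.501 ± 0.38 and an adjusted p of 0.00199. In each of these 3 genes every miR-29a library was above all miR-146a and scramble libraries. Zbp1, a sensor of Z-form nucleic acids, had a log2 fold change of 2.33 ± 0.29, the GTPase Gbp7 2.13 ± 0.41, Gbp3 2.02 ± 0.29 and Iigp1 3.93 ± 0.79, all called. Guanylate-binding proteins, Oas and Ifi200 genes are families of close copies, and reads may have been shared among them. Iigp1 was at or under 0.505 CPM in every miR-146a library, near the floor of 3 counts, and its fold rests on few reads. Gbp7 and Iigp1 each hold 1 miR-29a match and were higher with miR-29a, and Ifi44 holds 1 miR-146a match.

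Promoters of many of these genes hold the motif named for interferon-stimulated genes. The motif GAAANNGAAA, the core of the interferon-stimulated response element, was searched on both strands of RefSeq promoters (GRCm38) around the start of each gene, and it was present in 18 of 28 called interferon genes with a promoter (64.3%) and 1 of 4 that were not called. Another 11 of the 39 called genes had no promoter in the table. It was present in 3.99% of 27025 RefSeq promoters, 3.85% of those of genes tested, 9.48% of those called higher with miR-29a and 3.62% of those called lower, and in 0 of 28 called replication genes. The genes called higher include the called interferon genes. Because the motif is named for such genes, its presence in lists of them is not separate evidence. A match is a description of the letters and not a site of binding. Windows around the motif of Ifit1 (chr19:34640794-34640823, minus strand) and Gbp7 (chr3:142530273-142530302, minus strand) are shown with the motif in capitals.
Ifit1 promoter: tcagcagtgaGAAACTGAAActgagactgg
Gbp7 promoter: atggagaactGAAACTGAAActgcacacac

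Inflammatory mediators were mixed, with more members higher than lower with miR-29a. Of 19 tested cytokines and mediators 6 rose and 2 fell (median 0.35), and of 11 chemokines and receptors 4 rose and 1 fell (median 0.29). For the cytokines and mediators 9 rose and 3 fell with the block. Their counts were 5 and 1 without LPS_miR-146a replicate 3 and 4 and 1 without LPS_miR-29a replicate 3. Ccl2, the ligand that draws monocytes, read 24.3, 11.8, 22.3 and 9.86 CPM with miR-29a, 3.33, 0.642, 1.93 and 1.06 with miR-146a and 4.89, 2.04, 6.77 and 1.65 with scramble. Ccl2 was 9.74-fold higher with miR-29a (log2 fold change 3.28 ± 0.55, adjusted p = 0.00331). Lcn2, a protein that withholds iron from bacteria, read 405, 269.9, 274 and 172 against 68.6, 47.6, 66.6 and 40.5 CPM. By limma Lcn2 differed by a log2 fold change of 2.25 ± 0.25 (adjusted p = 0.000285). The cytokine Tnf read 49.6, 26.3, 31 and 26.1 against 13.7, 8.45, 15 and 10.4 CPM. Tnf was 2.61-fold higher with miR-29a (log2 fold change 1.38 ± 0.26, adjusted p = 0.00563). The groups of these 3 genes did not overlap, and each was also higher with miR-29a than with scramble (log2 fold changes 2.47, 1.5004 and 1.01, called). Ccl9, a chemokine with a miR-146a match, had 1.02 with miR-29a and -0.98 with miR-146a relative to scramble, both called. The scavenger receptor Marco went the other way, at 18.7, 8.72, 14.4 and 15.3 CPM with miR-29a and 55.7, 38.8, 52.6 and 42.1 with miR-146a. For Marco this gave a log2 fold change of -1.85 ± 0.23 and an adjusted p of 0.000538. Of 39 tested genes of Toll-like receptor and nuclear factor kappa B signalling 5 rose, among them the adaptor Myd88 and the kinase Chuk, and 1 fell, the adaptor Ticam1, and the median was 0.03. With the block 9 rose and 3 fell, 3 and 2 rose without replicate 3 of LPS_miR-146a and of LPS_miR-29a, and Ticam1 was not called without either. Chuk, with 1 miR-146a match, read 81.6, 69.3, 75.6 and 66.4 CPM with miR-29a, 41.6, 44.2, 40.4 and 31.4 with miR-146a and 55.5, 57.1, 43.8 and 51 with scramble, where the mimic groups did not overlap and scramble reached into that of miR-146a. Chuk was 1.81-fold higher with miR-29a (log2 fold change 0.85 ± 0.15, adjusted p = 0.00427). Of 21 genes of class I antigen presentation none rose and 2 fell, H2-K1 and H2-D1, near copies whose reads may be shared and which each hold 1 miR-146a match, and neither was called without replicate 3 of either group, while 4 rose with the block.

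Genes of DNA replication were higher with miR-29a than with miR-146a, and it was miR-146a that stood away from scramble. Of 46 tested genes of S phase 36 rose with miR-29a relative to miR-146a, none fell and the median was 0.94. Relative to scramble the median was 0.08 with miR-29a, where 2 were called, and -0.92 with miR-146a, where 26 were called. Rrm2, a subunit of the reductase that makes deoxynucleotides, read 51, 76.1, 52.9 and 47.1 CPM with miR-29a, 14.7, 19.8, 11.9 and 19.97 with miR-146a and 24.8, 54.8, 29.2 and 37.7 with scramble. By limma Rrm2 differed by a log2 fold change of 1.82 ± 0.22 (adjusted p = 0.00043). In Rrm2 every miR-146a library stood below every library of the other groups. Ccne2, the cyclin of S phase entry, had a log2 fold change of 1.66 ± 0.31 and Pole2, a subunit of DNA polymerase epsilon, 1.69 ± 0.33. Mcm2 to Mcm7, the replicative helicase, were each called higher. Genes of mitosis and histones had the same sign with fewer calls, and in these lists the medians relative to scramble were negative for both mimics. For mitosis they were -0.23 with miR-29a, where 1 gene was called, and -0.67 with miR-146a, where 16 were. For histones they were -0.52 with 7 called and -1.12 with 32 called. Over all genes 4.80% and 2.15% were called against scramble. Of 46 mitotic genes 9 rose and none fell (median 0.44), and 24 rose with the block, none without LPS_miR-146a replicate 3 and 3 without LPS_miR-29a replicate 3. Of 47 replication-dependent histone genes 13 rose and none fell (median 0.60), with 34 in the block, 2 without LPS_miR-146a replicate 3, 6 without LPS_miR-29a replicate 3 and 5 once the trend with GC content and length was removed. Histone genes are near-identical copies, and their counts may be split among them.

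**Figure D4:**
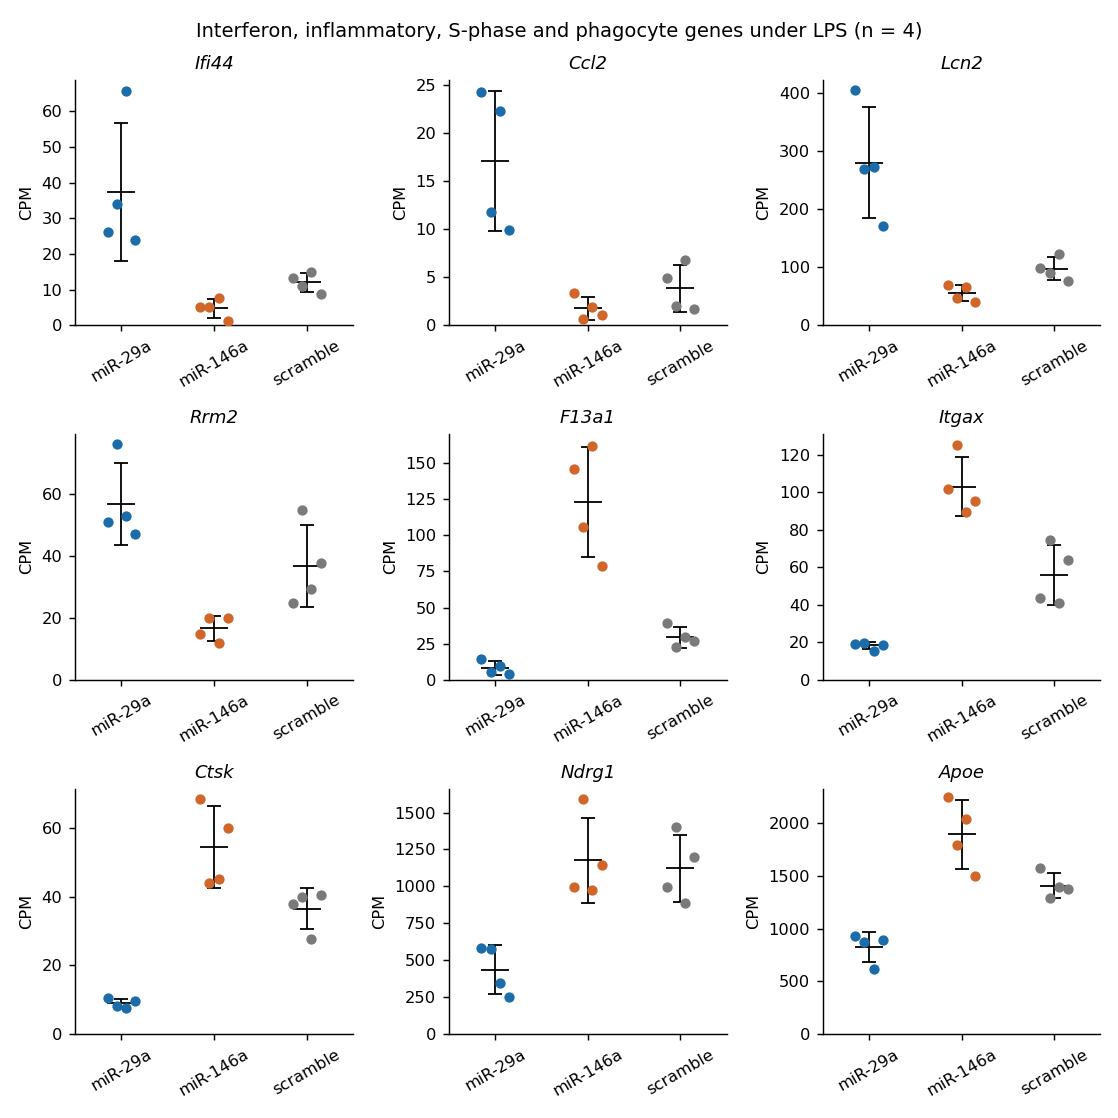
CPM of 9 genes under LPS in the 4 libraries of each group, with the mean and SD as bars and y axes from 0; blue is miR-29a, orange miR-146a and grey scramble. The interferon and inflammatory genes were highest with miR-29a, Rrm2 lowest with miR-146a, and F13a1, Itgax, Ctsk, Ndrg1 and Apoe lowest with miR-29a.

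Genes of alternative activation and coagulation held large falls with miR-29a. Of 16 tested members 9 fell, none rose and the median was -1.23. F13a1, the coagulation factor that crosslinks fibrin and marks tissue macrophages, read 14, 5.07, 9.51 and 3.94 CPM with miR-29a, 146.1, 106, 162 and 78.5 with miR-146a and 39.4, 22.3, 29.5 and 26.8 with scramble. F13a1 was 17.2-fold lower with miR-29a (log2 fold change -4.11 ± 0.34, adjusted p = 4.83e-05). The 3 groups were apart, with scramble between, and each mimic was called against scramble (log2 fold changes -1.95 and 2.15). The mannose receptor Mrc1 read 56.5, 42.2, 59.3 and 35.7 against 141, 117, 128 and 106 CPM, the selenium carrier Sepp1 122, 85.2, 145 and 101 against 460.4, 259.7, 520.4 and 349 CPM. Mrc1 and Sepp1 with miR-29a did not pass the test against scramble, while miR-146a was above it (0.88 and 1.56). Coagulation factor F10 read 34.2, 20.4, 20.2 and 18.7 against 57.1, 70.6, 66.2 and 61 CPM, with miR-146a overlapping scramble (55.5, 56.3, 55.1 and 69.6).

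Lists of phagocytic, lysosomal and disease-associated genes held more members called lower than higher with miR-29a. Of 32 tested phagocytic receptors and their machinery 14 fell and 2 rose, Axl and Fcgr1 (median -0.45). With the block 17 fell and 2 rose. The counts were 11 and 1 without LPS_miR-146a replicate 3 and 12 and 1 without LPS_miR-29a replicate 3. Itgax, the integrin CD11c, read 19.1, 19.8, 15.4 and 18.5 CPM with miR-29a, 102, 125, 89.5 and 95 with miR-146a and 43.6, 74.2, 40.8 and 63.9 with scramble. For Itgax this gave a log2 fold change of -2.52 ± 0.17 and an adjusted p of 1.35e-05. All 3 groups were apart. The Fc receptor Fcgr3 read 193, 175, 146.4 and 209 against 535, 384, 469 and 325 CPM, and of the microglial markers named above 7 of 15 tested were called lower (median -0.54), 10 with the block, 3 without LPS_miR-146a replicate 3 and 5 without LPS_miR-29a replicate 3, and their part in the phagocyte lists was not tested. Of 56 lysosomal enzymes and membrane proteins 18 fell and none rose (median -0.42), 33 with the block, 8 without LPS_miR-146a replicate 3 and 10 without LPS_miR-29a replicate 3. Ctsk, a collagen-cleaving cathepsin with 1 miR-29a match, read 10.5, 8.08, 7.62 and 9.74 CPM with miR-29a, 68.5, 44.2, 45.3 and 60.2 with miR-146a and 38, 40.0, 27.6 and 40.7 with scramble. Ctsk was 6.2-fold lower with miR-29a (log2 fold change -2.63 ± 0.21, adjusted p = 2.7e-05). Hyal1, which degrades hyaluronan, read 36.2, 42, 34.2 and 51.7 against 137, 157, 169 and 170.1 CPM, and its locus is shared with Hyal3 and Nat6. Of 28 genes that the study listed as phagocytic targets of its microRNAs 7 fell, none rose and the median was -0.38, with 16 falling in the block and 2 and 3 without replicate 3 of LPS_miR-146a and of LPS_miR-29a. That list was set by the study and is not independent evidence of a direction. Of 29 genes of disease-associated microglia 10 fell and 2 rose (median -0.47), with 15 falling in the block. Apoe, the lipid carrier, read 926, 877, 619 and 894 against 2245, 1790, 2043 and 1495 CPM. By limma Apoe differed by a log2 fold change of -1.17 ± 0.18 (adjusted p = 0.00226). The cystatin Cst7 holds a miR-29a match and rose instead, at 57.2, 45.9, 70.4 and 90.0 against 21.8, 21.9, 33 and 36.7 CPM, where miR-29a overlapped scramble (43.3, 43.7, 71.1 and 63.7).

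The list of glycolysis and hypoxia held members called lower with miR-29a and none called higher. Of 29 tested 10 fell and none rose (median -0.63), with 23 falling in the block and 4 without LPS_miR-29a replicate 3. The medians relative to scramble were -0.69 with miR-29a, where 16 were called, and -0.04 with miR-146a, where none was. Ndrg1, a hypoxia-induced stress gene, read 582, 575, 343 and 249 CPM with miR-29a, 998, 1594, 974 and 1146 with miR-146a and 997, 1400, 888 and 1202 with scramble. Ndrg1 was 2.83-fold lower with miR-29a (log2 fold change -1.499 ± 0.27, adjusted p = 0.00456). The groups were apart, and miR-146a and scramble overlapped. Ankrd37, also induced by hypoxia, read 56, 32.6, 26.2 and 27.1 against 113, 79.9, 86.8 and 68.1 CPM (log2 fold change -1.41 ± 0.23, adjusted p = 0.00241). The glucose transporter Slc2a1, with -1.07 ± 0.26, lost its call without LPS_miR-29a replicates 3 or 4.

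All 4 Argonaute genes, whose proteins carry the microRNA, were lower with miR-29a. Ago2, the slicing member with 4 miR-29a and 1 miR-146a matches, read 582, 577, 799 and 816 CPM with miR-29a, 1359, 1840, 2207 and 2388 with miR-146a and 1080, 1177, 1418 and 1634 with scramble. For Ago2 this gave a log2 fold change of -1.503 ± 0.20 and an adjusted p of 0.000848. Ago3 had a log2 fold change of -0.79 ± 0.16 and Ago4 of -0.83 ± 0.15, and both were called higher with miR-146a than with scramble (0.59 and 0.64) and not called with miR-29a. Ago1 lost its call when any of 5 libraries was left out. The remaining 19 genes of microRNA processing held 1 call, the exporter Xpo5, which was higher with miR-29a and not called without replicate 3 of either group.

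Of 11 tested extracellular matrix genes 6 fell and none rose (median -0.67), among them Loxl3, which crosslinks collagen, Plod1, which hydroxylates it, and the protease inhibitor Timp2, and Col1a1, Col1a2 and Col3a1, the fibrillar collagens, were at or under 3 counts in all 8 libraries. Of 24 genes of the NRF2 and Atf4 stress responses 8 rose and 1 fell (median 0.52), and the counts were 4 and 1 without LPS_miR-146a replicate 3. Those that rose included Prdx1, a peroxide-removing enzyme, at 706, 582, 797 and 872 against 451, 278, 353 and 347 CPM, and Gclm, a subunit of glutathione synthesis, at 63.5, 64.5, 72.4 and 89.1 against 41.9, 27.3, 31.3 and 47.4 CPM. Of 29 genes of phosphoinositide 3-kinase signalling 5 fell and 1 rose (median -0.25), 9 fell with the block, and 3 fell and none rose without replicate 3 of either group. Of 31 genes of cholesterol and fatty acid synthesis 2 rose and 2 fell (median 0.08), and 8 rose and 7 fell with the block. Of 17 enzymes and readers of DNA methylation 3 fell, Dnmt3a, Tet3 and Zbtb4, and 1 rose, Uhrf1, which brings the maintenance methyltransferase to replicating DNA and was at scramble's level with miR-29a (-0.02) and below it with miR-146a (-1.02). The calls of Uhrf1 and Zbtb4 were each lost when any of 3 libraries was left out, LPS_miR-146a replicate 3 among them. Of 7 tested genes of osteoclast-like fusion 1 fell, Ctsk, and 6 did with the block.

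Some large differences fell outside the lists. Atp9a, a lipid flippase of endosomes with a miR-29a match, read 2.35, 3.27, 2.46 and 2.96 CPM with miR-29a, 15.2, 16.7, 18.6 and 21.7 with miR-146a and 12.6, 22.3, 25.1 and 22.1 with scramble. Atp9a was 6.3-fold lower with miR-29a (log2 fold change -2.66 ± 0.24, adjusted p = 9.49e-05). It was apart from both other groups, which overlapped. The uncharacterised gene E330009J07Rik, with 2 miR-29a matches, had the same form, 46.3, 53.7, 46.4 and 40.9 against 169.6, 233, 202 and 211 CPM and 164, 223, 160.1 and 185 with scramble. By limma E330009J07Rik differed by a log2 fold change of -2.12 ± 0.15 (adjusted p = 1.35e-05). Trim63, a ubiquitin ligase with a miR-29a match, read 4.86, 6.8, 7.1 and 7.64 against 28.6, 25.7, 31 and 44.5 CPM, and the orphan receptor Gpr34, typical of microglia, 1.41, 1.475, 1.49 and 1.36 against 11.1, 10.4, 6.16 and 7.45 CPM. Among the largest rises Avil, an actin-binding protein, read 13.8, 20.2, 8.25 and 18 against 1.41, 3.21, 1.83 and 1.06 CPM and Il18rap, a receptor chain for interleukin 18 with 2 miR-146a matches, 7.84, 5.9, 7.56 and 3.2 against 1.31, 1.18, 1.83 and 0.266 CPM. Il18rap was 4.94-fold higher with miR-29a (log2 fold change 2.31 ± 0.49, adjusted p = 0.0115).

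Under vehicle the same contrast had fewer calls. Of 11744 genes tested, 383 differed between VEH_miR-29a and VEH_miR-146a (3.26%), 154 higher (1.31%) and 229 lower (1.95%), and 700 did with the block (5.96%). The vehicle libraries were uneven, with totals of 3554585 to 9638778 restored counts in VEH_miR-29a and 1657941 (replicate 1) to 9615029 in VEH_miR-146a, and with 18.9% small structural RNA in VEH_miR-29a replicate 2 beside 3.85 to 7.32% in the other 7. The count was 81 without VEH_miR-29a replicate 2 and 128 without VEH_miR-146a replicate 1, and also 38 and 248 without VEH_miR-29a replicates 3 and 4 and 71 and 60 without VEH_miR-146a replicates 2 and 3. The 2 contrasts share no library. Across 11419 genes tested in both, their log2 fold changes had a Pearson's r of 0.29 and a Spearman's rho of 0.25, given as a description, since genes are not independent replicates. Of 1288 genes called under LPS and tested under vehicle 77.1% had the same sign there, beside 56.6% of all genes, and 129 were called in both (10.0% of those called under LPS and 34.4% of those called under vehicle), 127 of them in the same direction. Dnmt3a, Tet3, Itgax, Ctsk, F13a1, Ccl9 and Cmpk2 were among the genes called in both conditions, with vehicle log2 fold changes of -1.11, -0.83, -1.69, -1.96, -1.70, 2.04 and 3.21. The Irak1 difference was called under vehicle (0.75 ± 0.12, limma adjusted p = 0.00939).

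The difference between the LPS contrast and the vehicle contrast, tested as an interaction over the 16 libraries, was called for 82 of 12206 genes (0.672%), 18 higher (0.147%) and 64 lower (0.524%) under LPS. At an unadjusted p under 0.05 there were 2251 genes, and with the replicate block 914 were called (7.49%, 3.49% higher and 4.00% lower). The count was 17 without LPS_miR-29a replicate 3, 21 to 23 without VEH_miR-29a replicate 3, VEH_miR-146a replicates 1 or 2 or LPS_miR-146a replicate 3, 29 without VEH_miR-29a replicate 2, 40 without VEH_miR-146a replicate 3 and 48 without LPS_miR-29a replicate 1, and it was 141 without LPS_miR-146a replicate 4, 142 without VEH_miR-146a replicate 4 and 258 without LPS_miR-29a replicate 2. F13a1 was lower with miR-29a in both conditions and more so under LPS (interaction -2.38 ± 0.38, adjusted p = 0.00767). Atp9a, Hyal1, Ndrg1, Ankrd37, F10 and Plod1 fell with miR-29a under LPS and were not called under vehicle, with interactions of -1.97, -1.56, -1.82, -1.25, -1.32 and -1.08, all called. The interferon-induced genes Ifit2 and Herc6 were higher with miR-29a under LPS at 1.92 and 1.64 and had -0.46 and -0.42 under vehicle, with interactions of 2.41 ± 0.52 and 2.06 ± 0.34. Casp4, the intracellular LPS sensor, and Trim12c, a gene with close copies, did likewise (1.84 and 1.95). For the glycolysis and hypoxia list the median was -0.63 under LPS and 0.18 under vehicle, where 2 genes rose and none fell. Its interaction was called lower for 5 members, beside 16 lower and 1 higher with the block. For the interferon-stimulated list the vehicle median was 0.61 with 7 of 29 called higher, and the interaction was called higher for 2, beside 9 higher and 1 lower with the block. For S phase it was 0.48 with 2 of 46 called, and the interaction was called for none of them, beside 9 with the block. For the miR-29a targets it was -0.40 with 6 of 29 lower, and the interaction was called for none (3 with the block). The 4 largest negative interactions, of Gm8451, Grin1, Gm7734 and Grb10, were of genes under 10 CPM with at least 1 group mean near the floor. Gm8451, a pseudogene on the strand opposite Mgat5, read 4.5, 1.89, 3.39 and 3.21 against 3.77, 1.23, 3.64 and 5.65 CPM under LPS, where it did not pass the test, and 4.76 ± 1.70 (SD, n = 4) against 0.196 ± 0.393 under vehicle.

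**Figure D5:**
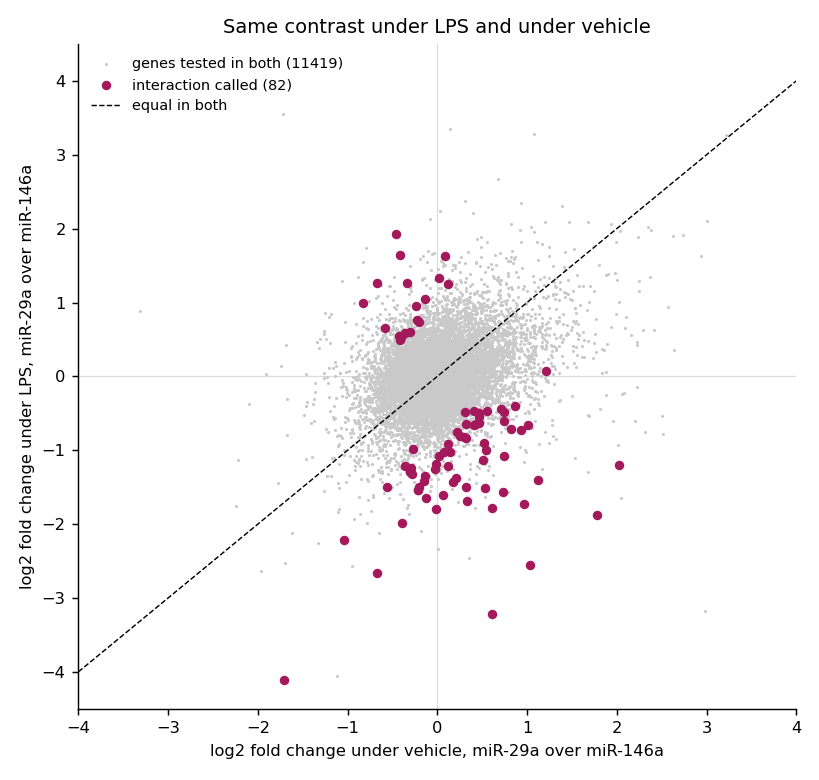
Log2 fold change of miR-29a over miR-146a under LPS (y axis) against that under vehicle (x axis) for 11419 genes, with the dashed line of equal values; coloured points mark the 82 genes with a called interaction, and 3 genes lie outside the axes, Gm8451 among them. Of the 82 genes, 64 lie below the line, where the difference under LPS was the more negative.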

How the data were processed

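RNA of BV-2 cells was sequenced from ribosomal RNA-depleted libraries, and the authors aligned and counted the reads per gene on GRCm38 with the nf-core rnaseq workflow. The authors' processing notes also name limma and edgeR. The counting strand and the annotation release are not given in the sources used here. The deposited table holds estimated counts, not scaled for depth, that are printed without their decimal mark, so a value with 3 decimals stands far too high: Gnai3 in LPS_miR-29a replicate 4 is deposited as 1159252 and was read as 1159.252, where the other 7 libraries hold 496 to 2990. This was inferred from the values: of 109458 values of 20000 or more, 0.0155% end in 0. Each value was given the mark that its gene's level in the same group, condition and table made most probable, and counted as certain at a posterior of at least 0.9. Of 153983 values above 0 in the 8 libraries 29.3% received a mark and 2.16% stayed uncertain, and 559 genes that would otherwise be tested were left out for this. A restart with all values read as whole (used for 24 genes) and a screen for groups spanning over 5-fold were added after values had been seen. On simulated data 99.9% of certain values came back right.

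Genes were kept on a minimum count of 10 scaled to library size and a total of 15. Counts were scaled by TMM and tested with limma 3.58.1 (voom, 0.5 added to each count; R 4.3.3) with Benjamini-Hochberg adjustment over all genes tested, the replicate number not in the model. The fit was tested on simulated data of LPS_miR-29a against LPS_miR-146a with 12310 genes and called 7 of 12114 unchanged genes. In that simulation 135 genes were changed at least 2-fold, and 83.3% of those that passed the filter were recovered. The same-number libraries of the groups deviated together from their group means (correlations across genes 0.32, 0.44, 0.16 and 0.11 for numbers 1 to 4), so the numbers were taken to pair the libraries, although replicate 4 correlated more (0.18) with a library of another number. The study's methods describe the replicates as independent experiments. Matches to a seed were 7 or 8 bases long in the 3′ UTRs of GENCODE M21 transcripts, and promoters and miRNA sequences were those of RefSeq.

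The members and the gene lists were chosen with earlier results of these data known. Named were the 12 genes with the largest and the 12 with the smallest log2 fold change among called genes whose groups did not overlap and whose higher group averaged at least 5 CPM, every called reported target with Dnmt3a, Dnmt3b, Irak1 and Traf6, up to 4 called genes of at least 5 CPM in each other list, and up to 4 called genes in each direction of the interaction. Other list members are named without values, and markers were named from their list. Some genes that this rule names are not reported here. Alternatives were other scalings, filters, tests, sets of libraries, restorations, the replicate block, the removal of GC and length trends (added after the data were seen) and leaving out each library. The mimics themselves were not measured here.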

Additional observations from a re-analysis of the deposited data

Results flagged for a closer look

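In groups of 4 libraries a value was noted when its gap to the nearest other value took a share of the group's range above Dixon's 95% critical value, which chance does in about 1 in 20 groups, and 19 of 236 groups had such a value, counted over the named genes and the library totals and shares. Of these 8 were in LPS_miR-146a replicate 4, the shallowest of the 8 libraries compared. There Ifit2 (19.4 CPM), Herc6 (10.9 CPM), Bmf (35.1 CPM) and Loxl3 (3.99 CPM) stood low and Zbp1 (3.19 CPM), Bbc3 (14.6 CPM), Lpl (1988 CPM) and Hist1h3a (69.2 CPM) stood high. In LPS_miR-146a replicate 2 the high values were those of Dnmt3b (15.9 CPM) and Naglu (197 CPM). In LPS_miR-29a the high values were F10 (34.2 CPM) in replicate 1, Uhrf1 (159 CPM), Pik3cd (160.4 CPM) and Ago1 (59.6 CPM) in replicate 2, and Gm4955 (23.3 CPM) and Ifit1 (32.8 CPM) in replicate 3. Low values in that group were Apoe in replicate 3 (619 CPM) and Mturn (1.85 CPM) and Hbp1 (98.1 CPM) in replicate 4.

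The difference between miR-29a and miR-146a was itself different under LPS and under vehicle by the interaction test for 17 of the named genes. Under LPS the log2 fold change was lower than under vehicle by an interaction of -2.38 for F13a1, -1.97 for Atp9a, -1.16 for Trim63, -1.56 for Hyal1, -1.08 for Plod1, -1.82 for Ndrg1, -1.25 for Ankrd37, -1.32 for F10, -4.58 for Gm8451, -3.84 for Grin1, -3.59 for Gm7734 and -3.57 for Grb10. It was higher by 1.198 for Prdx1, 2.41 for Ifit2, 2.06 for Herc6, 1.95 for Trim12c and 1.84 for Casp4.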

How the results depend on the processing

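The 1386 genes called between the mimics became 3191 with the replicate block, 2847 by limma-trend with the block, 2835 with the block once GC and length trends were removed, 2093 with all 32 libraries in 1 fit and 46 on the values as deposited, without restored marks. Under the other 9 settings that kept all libraries the count ranged from 1111 (no filter on low counts) to 2025 (all 16 LPS libraries), and leaving out 1 library gave 633 to 1597. With the block the vehicle contrast had 700 calls in place of 383, the interaction 914 in place of 82, and the contrasts with scramble 1407 in place of 628 for miR-29a and 1195 in place of 269 for miR-146a. Leaving out 1 library gave 17 to 258 interaction calls and, in fits added after the data were seen, 38 to 362 vehicle calls. The difference of medians for a miR-29a match was -0.2237 and -0.0547 in the shortest and the next quartile of UTR length, and for a miR-146a match it was 0.0719 for matches of 8 bases and 0.0645 in the next-to-longest quartile. The share of small structural RNA was lower with miR-29a by -0.133 percentage points and became higher by 0.521 with uncertain values left out. Of 115 named genes 114 kept direction and call with the block and Irak1 gained its call, while 6 lost it by limma-trend, 1 of 110 in the fit of all 16 LPS libraries, and 7 of 114 once GC and length trends were removed (4 with the block as well). Over 920 fits of a named gene with 1 library left out, 112 lost the call (37 genes) and 4 changed sign, all of Gm8451 (all its values -0.47 to 0.25). The causes were not tested. Depth limits genes near the floor of 3 counts, 0.17 to 0.80 CPM.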
